A study of Homo sapiens with 15 samples.

Results

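MT-ND3, MT-ND4L and MT-ND4 are 3 of the 37 annotated genes of the human mitochondrial genome, and they code for core membrane subunits of complex I of the respiratory chain. They were taken as all 3′-OH termini on either strand that lay within the gene MT-ND3 (chrM:10059-10404, 346 bases) or within the joined window of MT-ND4L (chrM:10470-10766, 297 bases) and MT-ND4 (chrM:10760-12137, 1378 bases). The genes follow each other on the genome, with MT-TR, a gene for transfer RNA of 65 bases, between MT-ND3 and MT-ND4L. Each gene is 1 uninterrupted coding stretch without introns, and its coding sequence reads as the L strand, so that the H strand is the template of its transcripts. Gene positions are those of GENCODE 44 on GRCh37, whose mitochondrial sequence is slightly shorter than that of the files, so a gene edge or a base number within a gene can be off by a base or so in the files.

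Complex I takes electrons from NADH and passes them to ubiquinone while it moves protons across the inner mitochondrial membrane. Mitochondrial DNA is widely described as replicating by strand displacement, in which a new H strand is made from the origin in the non-coding region (NCR) and pushes the parental H strand aside, so that this strand stays single-stranded or covered by protein until the L strand is copied from its own origin. Nuclease P1 cuts mainly single-stranded DNA, with a much lower activity on double-stranded DNA, and leaves a 3′-OH end at each cut.

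SSiNGLe-P1 maps 3′-OH termini at single bases after P1 digestion of nuclei. All samples were crosslinked nuclei of wild-type K562, a chronic myeloid leukemia cell line, and they differed in the amount of P1, which was none (untreated), 0.01, 0.1, 1 or 10 U, each with 3 replicates, 15 samples in all. Mitochondrial DNA was read from whatever mitochondrial material remained with these nuclei. The study saw genomic DNA visibly degraded at 10 U. It treated these samples as a possible further negative control, in which single-stranded regions may be degraded or depleted. Values at 10 U are thus described as those of this amount, not as a measure of single-stranded DNA. The study's methods call the replicates biological without saying what separates them, so the p-values measure the spread between these samples.

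The samples held between 29622 and 692989 mitochondrial termini, and the 3 genes held between 2328 and 26807 of them. The 10 U samples were the shallowest, with at most 57127 mitochondrial termini, and untreated replicate 1 had 112179. The share of mitochondrial termini outside the NCR was 29.9% to 33.3% in untreated samples, between 59.0% and 61.9% with 1 U, and between 69.3% and 76.2% with 10 U. The share within the 3 genes went the same way. It was 3.70% to 3.97% without P1, between 6.27% and 6.94% with 1 U, and between 7.86% and 9.01% with 10 U. Densities are given as RPM per kb, the termini of a gene and strand per kb after scaling the sample to 1000000 mitochondrial termini, whereas an H/L ratio (H-strand over L-strand termini of the same gene and sample) needs no such total.

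MT-ND4L and MT-ND4 share 7 bases, in which the end of one reading frame overlaps the start of the next, and termini there were counted in both genes. The stretch around this overlap is shown because it marks the border between both genes and because the position with the most L-strand termini at 10 U lay at its right end. It spans chrM:10746-10780 on the plus strand of GRCh37 by the GENCODE 44 transcripts, and capitals mark the shared bases, with the start codon of MT-ND4 at their left end.
end of MT-ND4L and start of MT-ND4: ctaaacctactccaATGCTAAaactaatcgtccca

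The H/L ratio rose in all 3 genes from 0.1 U of P1 upward, and its mean was highest at 1 U and lower again at 10 U. The means of all 13 protein-coding genes took this course. At 1 U MT-ND3, MT-ND4L and MT-ND4 ranked 8, 4 and 10 among them. At 0.1 and 1 U every sample held more H-strand than L-strand termini in each of the 3 genes, and at 10 U MT-ND4 did not in replicate 2. In MT-ND3 the H/L ratio was 1.29, 0.908 and 0.942 in untreated replicates 1 to 3. It was 2.95, 2.53 and 3.15 at 0.1 U, 3.17, 3.54 and 5.32 at 1 U, and 1.46, 1.52 and 1.83 at 10 U. No sample at 0.1 U or above overlapped the untreated samples, whereas those at 0.01 U (1.02 to 1.12) lay within their range. The mean rose from 1.05 ± 0.209 (SD, n = 3) to 4.01 ± 1.15 at 1 U, a factor of 3.78 over the paired untreated values. The spread over the 5 amounts gave p = 0.000347 by an exact two-sided permutation test within replicate numbers (14400 arrangements, smallest possible p = 6.94e-05), or 0.000821 after Benjamini-Hochberg adjustment over the 26 exact tests of this report.

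MT-ND4L, the smallest of the 3 subunits, had the highest H/L ratio at 1 U among them. It was 1.04, 1.11 and 1.40 in untreated replicates, 2.55, 2.85 and 3.29 at 0.1 U, 3.91, 4.92 and 7.57 at 1 U, and 2.14, 1.82 and 2.59 at 10 U. Again all samples from 0.1 U upward lay above all untreated samples, and the mean went from 1.18 ± 0.191 to 5.47 ± 1.89 at 1 U, a factor of 4.48 (SD, n = 3, exact permutation p = 0.000139, adjusted 0.000602).

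MT-ND4, one of the large proton-pumping subunits, started from the lowest H/L ratio of the 3, at 0.918, 0.816 and 0.917. It was 1.57, 1.75 and 2.05 at 0.1 U, 2.26, 3.36 and 4.61 at 1 U, and 1.18, 0.993 and 1.65 at 10 U. The groups from 0.1 U upward did not overlap the untreated group, and the mean went from 0.883 ± 0.0582 to 3.41 ± 1.18 at 1 U, a factor of 3.71 (SD, n = 3, exact permutation p = 0.000139, adjusted 0.000602). In the untreated samples the order of the means was MT-ND4L, MT-ND3, MT-ND4, but each gene overlapped its neighbour in that order. In untreated replicate 1 MT-ND3 lay above MT-ND4L. At 1 U the ranges of all 3 genes overlapped, but within every replicate the order was MT-ND4L, MT-ND3, MT-ND4. That order was not tested.

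**Figure D1:**
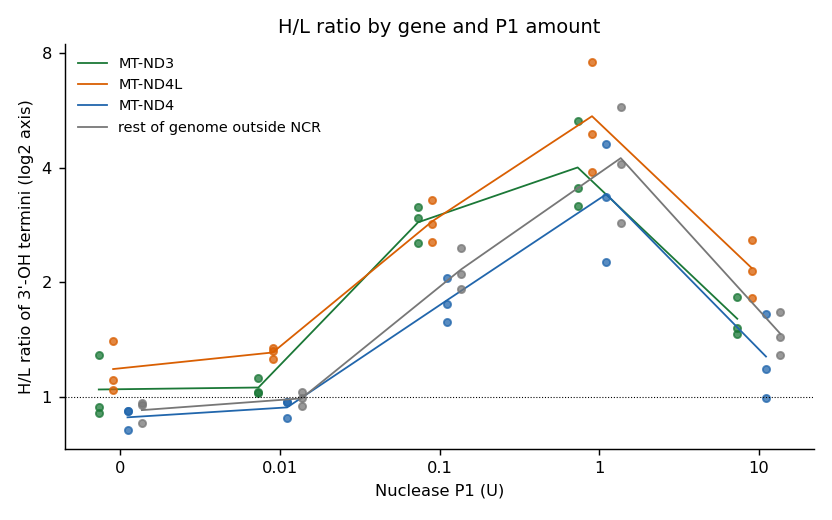
H/L ratio of all 3′-OH termini (log2 axis) against the P1 amount for MT-ND3, MT-ND4L, MT-ND4 and the mitochondrial genome outside the NCR without these genes. Points are the 3 samples of each amount and lines join their means, which at 1 U were 4.01, 5.47, 3.41 and 4.24 in that order.

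The rise of the H/L ratio was smaller when each position was counted once per sample (unique sites), and it kept its shape. The unique-site H/L ratio of MT-ND3 went from 1.06 ± 0.144 in untreated samples to 1.50 ± 0.155 with 0.1 U, and it was 1.70 ± 0.272 with 1 U and 1.26 ± 0.269 with 10 U (SD, n = 3, exact permutation p = 0.0114, adjusted 0.0172), and at 10 U it overlapped the untreated samples. With any replicate left out it missed the threshold (exact permutation p from 0.0917 to 0.108). It went from 1.20 ± 0.0328 to 2.00 ± 0.230 at 1 U in MT-ND4L (n = 3, exact permutation p = 0.000486, adjusted 0.00105). In MT-ND4 it went from 0.969 ± 0.0381 to 1.59 ± 0.231 (n = 3, exact permutation p = 0.000278, adjusted 0.000722). Unique sites fill up with depth. With every sample drawn down to 29622 mitochondrial termini, the unique-site H/L ratio at 1 U was 2.54 ± 0.596 in MT-ND3, 3.15 ± 0.758 in MT-ND4L and 2.23 ± 0.454 in MT-ND4, against 1.01 ± 0.181, 1.21 ± 0.129 and 0.931 ± 0.0404 in untreated samples (SD, n = 3).

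Set against the rest of the genome outside the NCR, only MT-ND4 stood apart at 0.1 and 1 U by a test. Its H/L ratio divided by that of the rest was 0.954 to 0.964 in the 3 untreated samples and 0.786 to 0.834 in the 6 samples of 0.1 and 1 U. The geometric means were 0.957 and 0.815 (exact two-sided permutation test over 84 splits, p = 0.0119, the smallest it can give, adjusted 0.0172). These splits pooled both amounts and did not keep replicate numbers together. The rest of the genome thus gained more H excess than MT-ND4 did. Over all 5 amounts this quotient missed the threshold after adjustment (exact permutation p = 0.0429, adjusted 0.0531). With unique sites its factor at 1 U turned to the other side of 1 (1.03), and its spread over the 5 amounts gave p = 0.408 (exact permutation). For MT-ND3 the quotient was highest at 0.1 U (1.33) and lowest at 1 U (0.959), with 1.12 in untreated samples. Its spread over the amounts missed the threshold after adjustment (exact permutation p = 0.0483, adjusted 0.0571), and 0.1 and 1 U together gave 1.13 against 1.12 untreated (p = 0.952 over the 84 splits, exact permutation). For MT-ND4L it was 1.27 in untreated samples and 1.29 at 1 U (exact permutation p = 0.241 over the 5 amounts, adjusted 0.261).

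Each strand was then taken by itself, and H-strand density rose in all 3 genes as a share of mitochondrial termini. Such a share also rises when the NCR holds fewer of the termini. Termini outside the NCR made up at most 33.3% of the total in untreated samples and at least 69.3% at 10 U. Values scaled to the termini outside the NCR follow with the edgeR tests. MT-ND3 held 6827, 5931 and 5819 RPM per kb on the H strand in untreated replicates. It held 12641, 8715 and 12445 at 0.1 U, 19498, 14525 and 17528 at 1 U, and 20414, 23323 and 17660 at 10 U. These 3 groups lay above every untreated sample, and the mean rose from 6192 ± 553 to 20466 ± 2832 at 10 U (SD, n = 3, exact permutation over the 5 amounts p = 6.94e-05, adjusted 0.000602). MT-ND3 had the lowest mean H-strand density of the 13 protein-coding genes in untreated samples, at 1 U and at 10 U.

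MT-ND4L started at 8164, 8008 and 7963 RPM per kb on the H strand. It reached 25809, 27333 and 28405 at 1 U and 35241, 33006 and 37964 at 10 U, where it was the highest of the 3 genes in every replicate. In MT-ND4 the density was 10577, 10113 and 10036 untreated, 25752, 29052 and 27607 at 1 U and 23953, 22446 and 24351 at 10 U, so that all 3 samples at 10 U lay below all 3 at 1 U. Both genes varied over the amounts (n = 3 per amount, exact permutation p = 0.000139, adjusted 0.000602 for each).

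By the same share of all mitochondrial termini, L-strand densities fell at 0.1 U and rose at 10 U. In MT-ND3 they were 5307, 6529 and 6175 RPM per kb untreated, 4292, 3441 and 3950 at 0.1 U, 6148, 4103 and 3297 at 1 U, and 13946, 15329 and 9659 at 10 U. The 0.1 U samples lay below and the 10 U samples above all untreated samples, whereas those at 1 U overlapped them (exact permutation over the 5 amounts p = 0.00813, adjusted 0.0141). Without replicate 2 the p for MT-ND3 was 0.142 and without replicate 3 it was 0.0583, by the same exact permutation test. MT-ND4L fell from a mean of 6917 ± 1109 to 3916 ± 422 at 0.1 U and stood at 16433 ± 1746 at 10 U (SD, n = 3, exact permutation p = 0.000764, adjusted 0.00153). MT-ND4 fell from 11621 ± 725 to 7106 ± 1114 and stood at 19187 ± 4025 at 10 U (SD, n = 3, exact permutation p = 0.00167, adjusted 0.00310), with p = 0.117 without replicate 2.

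**Figure D2:**
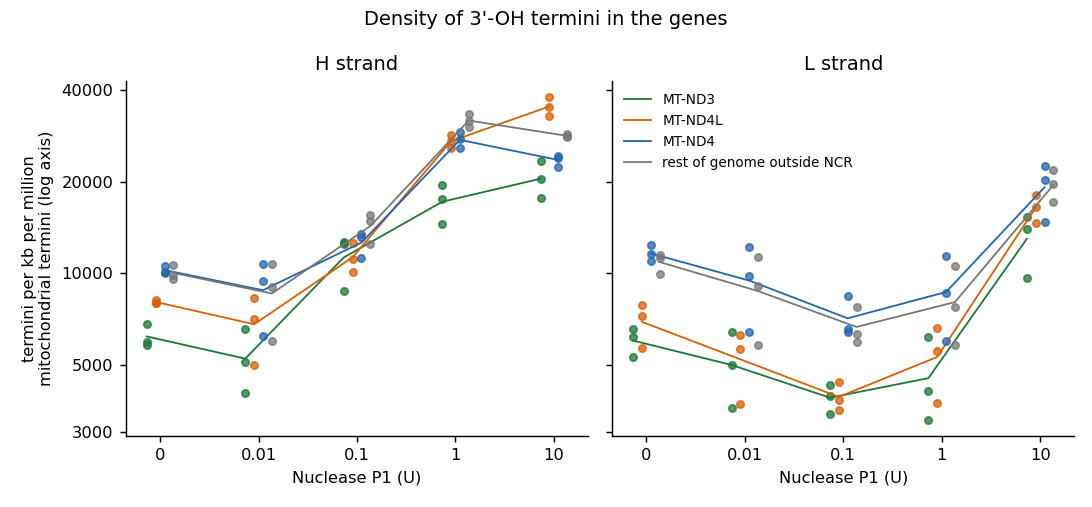
Density of 3′-OH termini (RPM per kb, log axis) on the H strand (left) and the L strand (right) against the P1 amount, with 3 samples per amount and lines through their means. On the H strand all 3 genes lie above their untreated samples from 0.1 U upward, and on the L strand they dip at 0.1 U and are highest at 10 U.

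Counts of termini per gene and strand were also tested one P1 amount at a time with edgeR's quasi-likelihood test over 76 features (38 per strand, every annotated mitochondrial gene and the NCR), with the replicate number as a block and all mitochondrial termini as the library size. At 1 U all 3 genes rose on the H strand, by log2 fold changes of 1.47 ± 0.22 in MT-ND3 (SE, FDR = 2.28e-10), 1.76 ± 0.22 in MT-ND4L (FDR = 1.74e-14) and 1.43 ± 0.19 in MT-ND4 (FDR = 1.72e-13). On this strand 92.1% of all features rose at 1 U, and the median log2 fold change was 1.47 over the 3 genes and 1.94 over all features. At 0.1 U MT-ND3 (0.86 ± 0.22, FDR = 0.000328) and MT-ND4L (0.49 ± 0.21, FDR = 0.0281) rose by edgeR, and MT-ND4 did not pass the threshold (0.30 ± 0.18, FDR = 0.105), against 73.7% of all features that rose. MT-ND4L did not pass at 0.1 U without the replicate block (edgeR FDR = 0.0534) or with any replicate left out (edgeR FDR from 0.0538 to 0.152). At 10 U all 3 genes rose on the H strand, as did 89.5% of all features. MT-ND4 moved least of the 3 there, by 1.20 ± 0.19 (edgeR FDR = 4.50e-10), and the median over the 3 genes was 1.74 against 1.65 over all features.

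On the L strand all 3 genes fell at 0.1 U by edgeR, with log2 fold changes of -0.65 in MT-ND3, -0.80 in MT-ND4L and -0.72 in MT-ND4, and 92.1% of all L-strand features fell. Without replicate 2, and so with 2 replicates, none of the 3 passed (edgeR FDR from 0.0820 to 0.201). At 1 U only MT-ND4 passed (-0.47 ± 0.19, edgeR FDR = 0.0206), while 71.1% of L-strand features fell, and without the replicate block (edgeR FDR = 0.0855), without replicate 2 (FDR = 0.228) or without replicate 3 (FDR = 0.145) it did not. After scaling to the termini beyond the NCR all 3 fell at 1 U, with log2 fold changes of -1.37 in MT-ND3, -1.30 in MT-ND4L and -1.37 in MT-ND4 (edgeR FDR at most 5.03e-06), with a median of -1.41 over all L-strand features. At 10 U all 3 rose on the L strand, as did 68.4% of features, by 1.08 in MT-ND3, 1.26 in MT-ND4L and 0.70 in MT-ND4, the last not past the threshold without replicate 2 (edgeR FDR = 0.0713). On the L strand this rise was seen with division by all mitochondrial termini only. Divided by the termini outside the NCR, the log2 fold change at 10 U was -0.10 in MT-ND3 (edgeR FDR = 0.640), 0.07 in MT-ND4L (FDR = 0.682) and -0.49 in MT-ND4 (FDR = 0.00740). On that scale the H strand of MT-ND4 did not pass at 10 U either (0.02, edgeR FDR = 0.847), whereas MT-ND3 (0.55, FDR = 0.000988) and MT-ND4L (0.95, FDR = 5.01e-07) rose. At 1 U the H-strand rise held on that scale for all 3 (log2 fold changes of 0.56, 0.84 and 0.51, edgeR FDR at most 0.000157), with a median of 1.02 over all H-strand features. At 0.01 U none of the 76 features passed by edgeR. There 11 had an unadjusted p under 0.05, none of them a strand of these genes, and DESeq2 called 0, with 2 features at an unadjusted p under 0.05.

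The other mitochondrial complex I genes were MT-ND1, MT-ND2, MT-ND5 and MT-ND6, the last coded on the opposite strand. On the H strand 4 of 4 rose at 0.1, 1 and 10 U, against 73.7%, 92.1% and 89.5% of all features. On the L strand 4 of 4 fell at 0.1 U and 1 U, against 92.1% and 71.1%. Over both strands 28 features fell at 1 U by edgeR. It was 6 without the replicate block, 3 to 31 with 1 replicate left out, and 41 after scaling to the termini beyond the NCR. At 1 U their H-strand log2 fold changes were 1.94 to 2.13, above those of MT-ND3, MT-ND4L and MT-ND4 (1.43 to 1.76), and at 10 U they were 1.26 to 1.68. The relation to other genes was tested as the spread, over the 5 amounts, of the ratio of H-strand densities within a sample, against MT-ND1 with MT-ND2, MT-ND5 and MT-CYB. MT-ND4L and MT-ND4 together held 1.15 times the density of MT-ND1 with MT-ND2 in untreated samples (range 1.09 to 1.19) and 0.769 times at 1 U (0.721 to 0.798), with no overlap and a lower value in 3 of 3 replicates (exact permutation over the 5 amounts p = 0.000278, adjusted 0.000722). The same window went from 0.734 to 0.532 times MT-ND5 (exact permutation p = 6.94e-05, adjusted 0.000602) and from 0.832 to 0.515 times MT-CYB, the cytochrome b gene of complex III (exact permutation p = 0.000208, adjusted 0.000722). At 10 U these ratios were 1.08, 0.675 and 0.690. With unique sites the ratios moved less at 1 U. The ratio went from 1.04 to 0.960 for MT-ND1 with MT-ND2 and from 0.973 to 0.921 for MT-ND5, and for MT-CYB it went from 0.921 to 0.911, where the 1 U samples (0.906 to 0.917) lay within the untreated range (0.887 to 0.946), although each still varied over the 5 amounts (exact permutation p = 0.00278, 0.00771 and 0.000417).

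MT-ND3 moved against the same genes in the same direction at 1 U. Its H-strand density went from 0.719 to 0.480 times that of MT-ND1 with MT-ND2 (exact permutation over the 5 amounts p = 0.0101, adjusted 0.0164). It went from 0.460 to 0.332 times MT-ND5 (p = 0.0176 by the same exact test, adjusted 0.0240) and from 0.521 to 0.321 times MT-CYB (p = 0.0376, exact, adjusted 0.0488). At 0.1 U these ratios were 0.776, 0.521 and 0.507, and at 10 U 0.854, 0.535 and 0.547. The step from untreated to 1 U alone was not tested. With unique sites none of these 3 ratios passed over the 5 amounts (exact permutation p from 0.0687 to 0.375). Without replicate 1 none passed either (exact permutation over the 5 amounts p = 0.133, 0.150 and 0.125), with factors at 1 U over untreated of 0.602, 0.651 and 0.583. The ratio to MT-CYB did not pass with any replicate left out (p at least 0.125 by the same exact test).

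**Figure D3:**
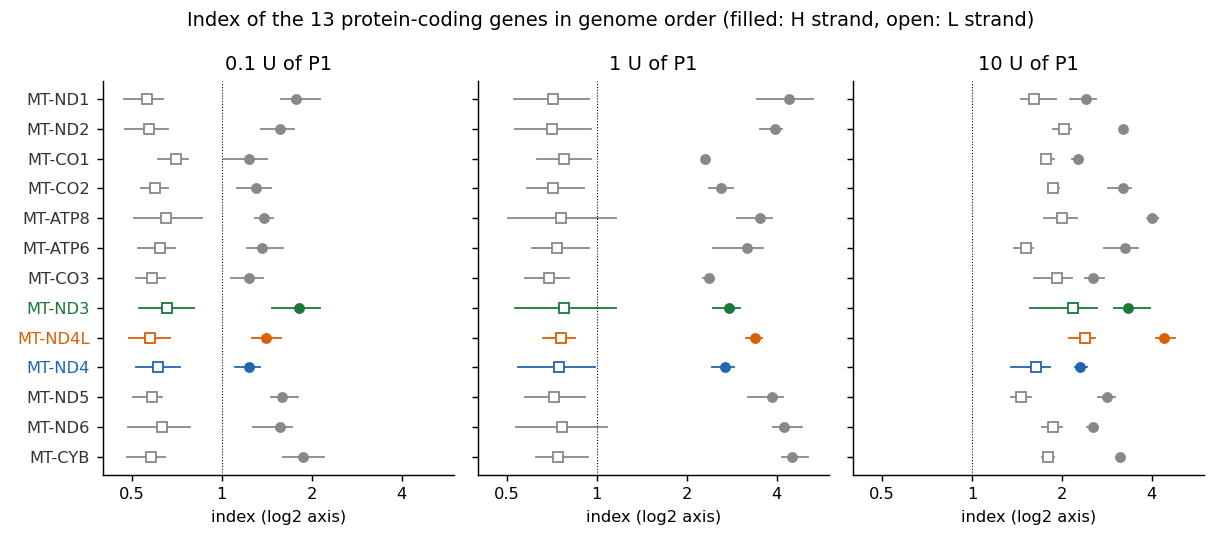
Index (share of mitochondrial termini over that in the untreated replicate, log2 axis) of the 13 protein-coding genes in genome order at 0.1, 1 and 10 U. Markers are means of 3 replicates, bars their range, filled circles the H strand and open squares the L strand; MT-ND3, MT-ND4L and MT-ND4 are coloured, and MT-ND4L has the highest H-strand mean at 10 U (4.40).

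The index of a gene, its share of mitochondrial termini divided by its share in the untreated replicate with that number, was highest in MT-ND3 at 0.1 U and in MT-ND4L at 1 and 10 U, and the MT-ND3 and MT-ND4 samples overlapped at 1 U. On the H strand MT-ND3 stood at 1.82 ± 0.336 at 0.1 U, rank 2 of 13 protein-coding genes, at 2.77 ± 0.291 at 1 U, rank 9, and at 3.32 ± 0.532 at 10 U, rank 3 (SD, n = 3). MT-ND4L went from 1.40 ± 0.163 at 0.1 U through 3.38 ± 0.205 at 1 U to 4.40 ± 0.331 at 10 U, ranks 7, 7 and 1. MT-ATP8 came next at 10 U with 3.99 ± 0.175, and its replicates overlapped those of MT-ND4L. At 10 U the L-strand index of MT-ND4L (2.40 ± 0.257) also had rank 1. MT-ND4 stood at 1.23 ± 0.117, 2.69 ± 0.226 and 2.30 ± 0.109, ranks 12, 10 and 12. The ratio of H-strand density in MT-ND3 to that in the MT-ND4L and MT-ND4 window was 0.627 in untreated samples, 0.900 at 0.1 U, 0.624 at 1 U and 0.792 at 10 U. Its spread over the amounts missed the threshold (exact permutation p = 0.0564, adjusted 0.0637), although at 0.1 U the samples (0.792 to 0.984) lay above the untreated ones (0.602 to 0.672).

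By the root mean square distance of the mean log2 H-strand index over the 4 amounts, the other protein-coding genes nearest to MT-ND3 were MT-ATP6 (0.226), MT-CO2 (0.243) and MT-ND2 (0.274). Nearest to MT-ND4L were MT-ATP8 (0.0739), MT-ATP6 (0.227) and MT-ND2 (0.265), and nearest to MT-ND4 were MT-CO1 (0.115), MT-CO3 (0.115) and MT-CO2 (0.238). These distances rest on means of 3 replicates and on untreated samples that all genes share, and they are descriptions.

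Within the MT-ND4L and MT-ND4 window the density was uneven, and its slope turned over with P1. The study divides the genome outside the NCR into the regions Q1 to Q4, and the border between Q1 and Q2 falls 123 bases into MT-ND4L. H-strand density after this border over that before it was 1.76 in untreated samples (1.72 to 1.83), 1.77 at 0.01 U, 1.33 at 0.1 U (range 1.24 to 1.47) and 1.15 at 1 U (range 1.08 to 1.27). It reached 0.503 at 10 U, with a range of 0.476 to 0.555. From 0.1 U upward no sample overlapped the untreated ones, and by all termini the first bases of MT-ND4L went from less dense to denser than what follows (exact permutation over the 5 amounts p = 0.000278, adjusted 0.000722). Without the 3 positions with the most termini at 10 U on each strand of each window, left out after seeing the data, the value at 10 U was 0.678 and that in untreated samples 1.82 (exact permutation p = 0.000972). With unique sites the turn was weaker, from 1.25 in untreated samples to 0.871 at 10 U (0.800 to 1.01, exact permutation p = 0.000486), and 1 sample at 10 U stayed above 1.

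**Figure D4:**
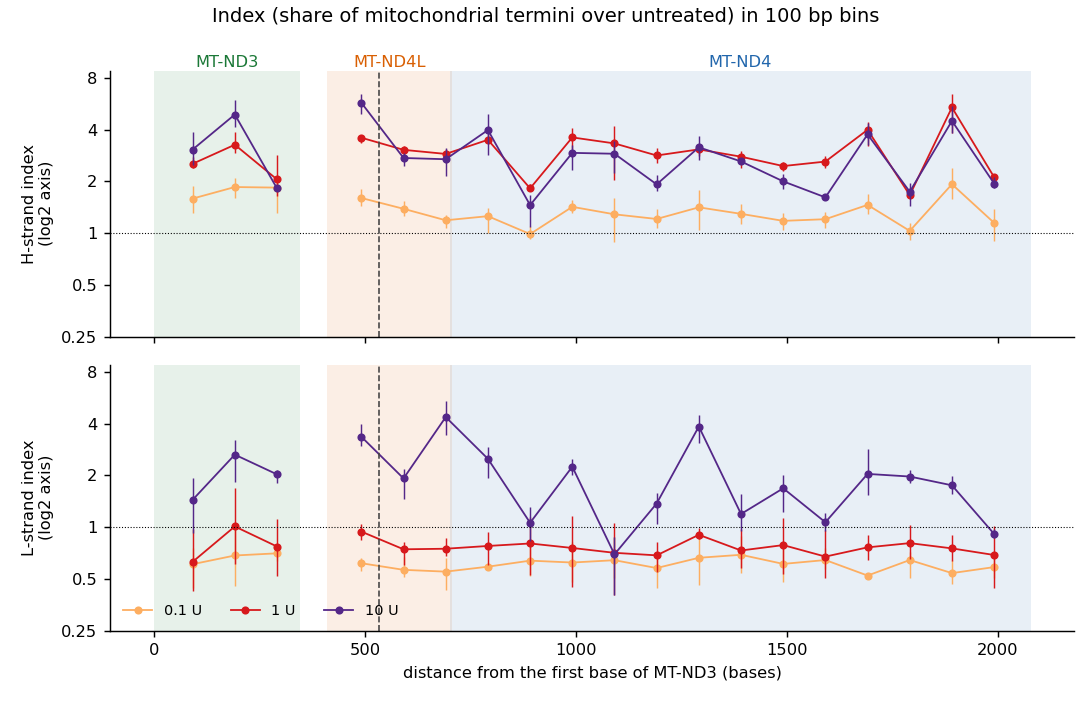
Index (share of mitochondrial termini over that in the untreated replicate, log2 axis) in 100 bp bins along the genes, by distance from the first base of MT-ND3, on the H strand (top) and the L strand (bottom) at 0.1, 1 and 10 U. Points are means of 3 replicates, vertical lines their range, shading the genes and the dashed line the border between Q1 and Q2; at 1 U the H-strand index is highest (5.38), among the bins centred in these genes, in the next to last bin of MT-ND4.

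Bins of 100 bp lay on a fixed grid, with 3 centred in MT-ND3 and 16 in the MT-ND4L and MT-ND4 window. With all mitochondrial termini as the library size, the H-strand rise at 1 U covered the whole stretch. All 19 bins rose at 1 U by edgeR, where 86.1% of the 166 H-strand bins of the genome rose. The median log2 fold change was 1.53 against 1.68 over all H-strand bins. With the termini beyond the NCR as the total, edgeR called 120 of 332 bins over both strands higher at 1 U, against 146. The rise over the whole stretch is therefore stated for the first scale only. At 0.1 U all 3 bins of MT-ND3 rose but only 6 of the 16 others did, against 56.0% of all H-strand bins, and at 10 U all 19 rose, against 93.4%. On the L strand all 19 bins fell at 0.1 U, against 94.6% of L-strand bins, and 7 of 19 fell at 1 U, against 59.6%. Without replicate 2 the share that fell was 5.26% at 0.1 U and 0% at 1 U, and with no replicate block it was 5.26% at 1 U. It was 89.5% at 1 U with DESeq2 and 100% with TMM factors or after scaling to the termini beyond the NCR. At 10 U 12 rose on the L strand, against 66.3%, and the lowest was chrM:11101-11200 in MT-ND4, with a log2 fold change of -0.60. The counts at 10 U depended on the scale, since 63.2% of the 19 bins rose on the H strand and 21.1% on the L strand with TMM factors or DESeq2, and 36.8% and 15.8% after scaling to the termini beyond the NCR. At 0.1 U the share that rose on the H strand was 94.7% with TMM factors or DESeq2.

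In MT-ND3 the bin chrM:10201-10300 rose most on the H strand at 1 U, by 1.71 ± 0.23 (SE, edgeR FDR = 3.36e-13), and chrM:10301-10400 rose least, by 0.97 ± 0.23 (edgeR FDR = 4.31e-05). In the other window neighbouring bins near the end of MT-ND4 marked both ends of the range. The bin chrM:11901-12000 rose by 2.41 ± 0.23 (edgeR FDR = 1.52e-23) and chrM:11801-11900 by 0.73 ± 0.22 (edgeR FDR = 0.00200), which correspond to indices of 5.38 ± 1.37 and 1.66 ± 0.030 (SD, n = 3). The bin between the windows, chrM:10401-10500, which holds MT-TR and the first bases of MT-ND4L and is centred outside both windows, rose more than any of them, by 3.14 ± 0.25 (SE, edgeR FDR = 4.92e-34). The L strand varied less at 1 U, between -0.80 in chrM:10101-10200 of MT-ND3 (edgeR FDR = 0.000996) and -0.09 in chrM:10501-10600 of MT-ND4L (FDR = 0.698).

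On the H strand the 3 positions with the most termini in untreated samples and the 3 at 1 U had none in common, in MT-ND3 or in the other window. In MT-ND3 the position with the most H-strand termini in untreated samples was 10281, with counts of 11, 66 and 67. At 1 U it had 70, 46 and 57, and its share of the H-strand termini of MT-ND3 went from 5.95% to 2.86%. At 1 U the leading position was 10268, with 3, 10 and 18 termini untreated, 79, 72 and 88 at 1 U, and 41, 73 and 26 in the shallow 10 U samples. Its share rose from 1.34% to 4.03% at 1 U and to 14.6% at 10 U, and its neighbour 10267 held another 8.84% there.

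Position 10400, near the end of MT-ND3, took another course. It had 0, 4 and 2 H-strand termini untreated, 56, 58 and 118 at 0.1 U, 95, 45 and 47 at 1 U, and 2, 1 and 0 at 10 U. On the RPM scale it went from 4.22 ± 4.27 to 141 ± 33.0 with 0.1 U, then 182 ± 73.0 with 1 U and 21.4 ± 23.6 with 10 U (SD, n = 3), so the 0.1 and 1 U samples lay above all others and the 10 U counts were too low to place it apart from untreated. On the L strand of MT-ND3 position 10313, 45 bases from 10268, led at 10 U, with counts of 20, 30 and 11 and 10.2% of the strand's termini in the gene, against 3.59% in untreated samples. The leading untreated L-strand position, 10333, had 10, 46 and 65 termini and fell from 5.15% to 1.27% at 10 U.

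In MT-ND4 the leading untreated H-strand positions were 11871, 11691 and 11692, which held 200 ± 34.8, 190 ± 41.0 and 171 ± 9.0 RPM (SD, n = 3). At 1 U they stood at 182 ± 24.5, 190 ± 13.6 and 224 ± 21.3, while the positions that led at 1 U had been low. Position 11995 had 2, 10 and 6 termini untreated, 119, 131 and 134 at 1 U and 32, 35 and 19 at 10 U, or 17.2 ± 4.53, 381 ± 60.3 and 667 ± 70.1 RPM. Positions 11939 and 11744 went from 40.8 ± 8.68 to 365 ± 42.9 and from 46.4 ± 6.56 to 355 ± 49.3 RPM at 1 U.

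On the L strand of MT-ND4 position 11417 was among the 3 highest both in untreated samples and at 1 U. It was second in untreated samples, behind 11676, and first at 1 U, with 266 ± 85.2 and 199 ± 18.8 RPM (SD, n = 3), and its neighbour 11418 was second at 1 U. At 10 U a position near the start of MT-ND4 led instead. Position 10780, at the right end of the stretch printed above, had 11, 56 and 32 L-strand termini untreated, 38, 38 and 21 at 1 U, and 68, 102 and 20 at 10 U, and rose from 94.4 ± 27.0 to 1349 ± 592 RPM. On the H strand position 10473, the fourth base of MT-ND4L, led at 10 U, with 3, 2 and 2 termini untreated and 22, 33 and 42 at 10 U, or 11.7 ± 13 and 836 ± 505 RPM. All positions were chosen by their counts, those of 10 U after their values were seen, so the values are a description without a test, and the base at a position was not read because no genome with the numbering of the files was used here.

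**Figure D5:**
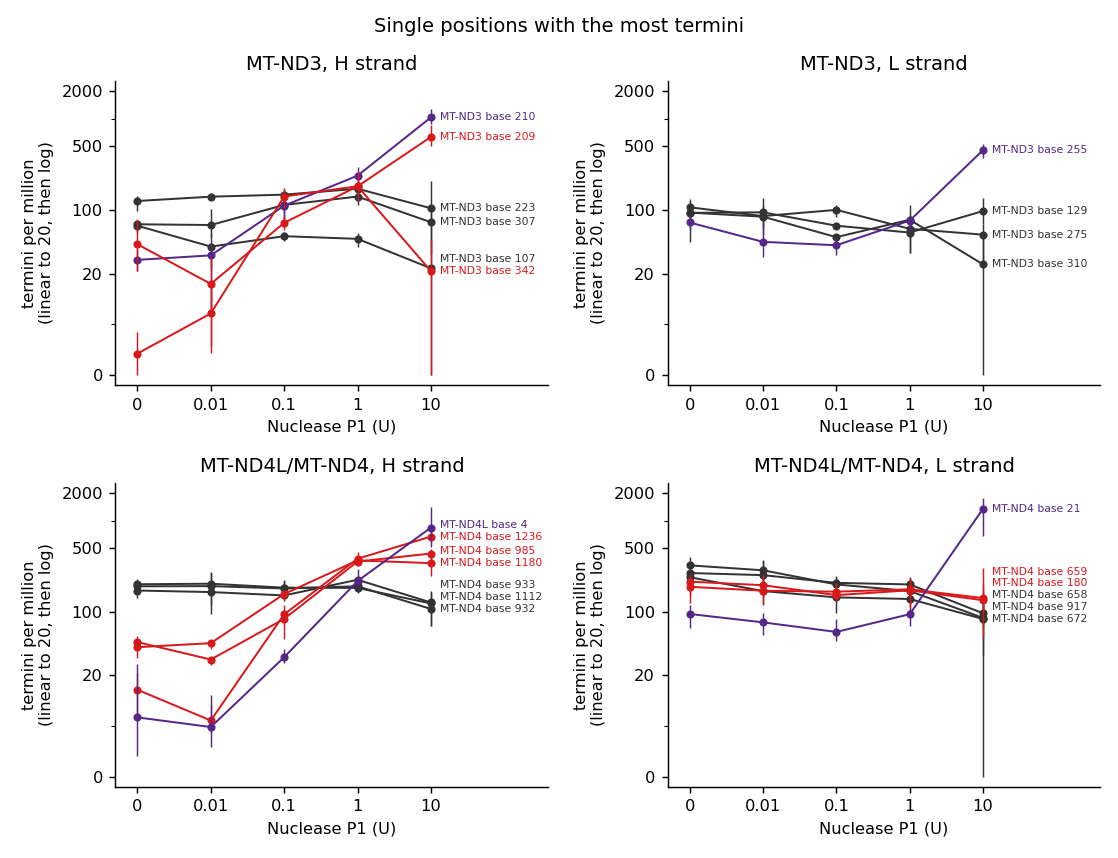
RPM (linear to 20, then log) at single positions against the P1 amount, by window and strand, with each position named by its base number in the gene. Points are means of 3 replicates and vertical lines their range; black positions were among the 3 highest in untreated samples, red ones among the 3 highest at 1 U, and purple ones were highest at 10 U, where MT-ND4 base 21 on the L strand reached 1349 RPM.

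How evenly the termini were spread over positions was described in 2 ways. The 10 positions with the most termini held 33.5% ± 1.57 of the H-strand termini of MT-ND3 in untreated samples, 26.3% ± 1.62 with 1 U and 44.7% ± 3.63 with 10 U (SD, n = 3). In the MT-ND4L and MT-ND4 window they held 10.4% ± 1.40, 6.91% ± 0.448 and 13.3% ± 1.21. On the L strand the shares in untreated, 1 U and 10 U samples were 34.1%, 33.7% and 46.1% in MT-ND3 and 12.6%, 11.8% and 18.6% in the other window. Such a share rises in a shallow sample. With an equal number of termini drawn from every sample, 99 per strand in MT-ND3 and 723 in the other window, H-strand termini of MT-ND3 lay on 16.6% ± 0.563 of positions untreated, 17.8% ± 0.425 at 1 U and 15.3% ± 1.35 at 10 U. In the other window it was 22.3% ± 1.03, 24.0% ± 0.469 and 21.9% ± 0.180, so the 1 U samples (23.5% to 24.5%) lay above all untreated samples (21.4% to 23.4%) while the 10 U samples (21.7% to 22.1%) lay within them. In MT-ND3 the 10 U samples (13.8% to 16.5%) overlapped the untreated ones (16.0% to 17.1%).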

How the data were processed

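The authors selected reads with the tails that their library method adds, mapped these by BWA-MEM against the mitochondrial genome, and deposited, for every base of both strands, the count of termini. The deposited files also hold RPM values, which the authors obtained by dividing each count by the mitochondrial total of its sample. Per the labels, the processing notes name BWA 0.7.12 and SICER 1.1, and SICER was applied to the nuclear data, not used here. Whether PCR duplicates were removed is not stated for the mitochondrial counts, so termini are not independent molecules, and counting error alone sets a lower limit to the error.

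Plus in the files stands for the H strand. The stretch printed above follows the plus strand of the reference instead, which reads as the L strand. Samples were grouped by the P1 amount and replicate number in their titles. H/L ratios, densities in RPM per kb and indices were computed per sample from the deposited counts. Exact permutation tests exchanged log values within replicate numbers, since the study pairs treated and untreated replicates by number. Counts per gene and per 100 bp bin were tested with edgeR 4.0.16 (R 4.3.3) without TMM factors, for features with at least 10 termini in all, at an FDR of 0.05. Both kinds of test were tested on simulated data. Alternatives were no replicate block, TMM factors, termini outside the NCR as the total, DESeq2 1.42.0, bins of 50 and 200 bp, unique sites, shifted gene windows, thinning to equal depth, leaving out high positions and leaving out each replicate.

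The genes, lists and tests were chosen with earlier results of these data known. The named positions are the 3 highest per window and strand in untreated samples and at 1 U, and the named bins those with the highest and lowest fold change at 1 U. Positions that led at 10 U were added after their values were seen. No sequence was read by the coordinates of the files.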

Additional observations from a re-analysis of the deposited data

How the results depend on the processing

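When each sample was scaled to its termini beyond the NCR, indices came out lower at 1 and 10 U. On the H strand they were 1.47 (1 U) and 1.45 (10 U) in MT-ND3, 1.79 and 1.93 in MT-ND4L, and 1.43 and 1.01 in MT-ND4, and on the L strand 0.413 and 0.960, 0.403 and 1.05, and 0.397 and 0.721. At 0.01 U the index was 1.04 for MT-ND3 on the H strand and 0.930 for MT-ND4L on the L strand. The L-strand log2 fold change at 10 U changed sign on that scale in MT-ND3 (-0.10) and MT-ND4 (-0.49), with DESeq2 (-0.026 and -0.41) and, in MT-ND4, with TMM factors (-0.31). In bins of 200 bp, which have other edges, 27.3% of the bins centred in the windows rose on the H strand at 0.1 U. Of the 19 bins of 100 bp, 94.7% did with TMM factors and with DESeq2. At 10 U 63.2% rose on the H strand and 21.1% on the L strand with TMM factors and with DESeq2, and 36.8% and 15.8% on the scale without the NCR. The share that fell on the L strand at 1 U was 89.5% with DESeq2, 100% with TMM factors or on the scale without the NCR, and 5.26% with no replicate block. TMM factors moved the share of higher calls over all bins from 59.3% to 45.5% at 1 U and from 99.3% to 62.7% at 10 U. With no replicate block 41 features of genes and 159 bins were called at 1 U, against 63 and 246, the factor at 1 U of the H/L quotient of MT-ND3 (0.856) went from p = 0.0483 to p = 0.0548 (exact permutation, before adjustment), and the ratio of MT-ND3 to the other window (0.995) from 0.0564 to 0.0311 (exact permutation). Deviations from group means correlated over 0.1 in 15 of 30 pairs of samples with the same number (median 0.122). Among other pairs they did so in 11 of 60 (median -0.0582). The pairing itself was taken from the study's methods. Counting unique sites gave factors at 1 U of 1.01 (MT-ND3) and 1.03 (MT-ND4) for the H/L quotient, and for MT-ND3 0.939 over MT-ND1 with MT-ND2, 0.960 over MT-ND5, 1.00 over MT-CYB and 1.01 over the other window. Leaving out the 3 highest untreated positions per window and strand gave factors at 1 U of 0.852 for the quotient of MT-ND4 and 1.04 for MT-ND3 over the other window. The exact permutation p over the 5 amounts was then 0.0510 and 0.0306. Leaving out each replicate in turn gave factors at 1 U from 0.579 to 0.853 and from 0.617 to 0.831 for the L-strand density of MT-ND3 and MT-ND4, from 1.38 to 1.81 for the unique-site H/L ratio of MT-ND3, and from 0.816 to 0.877 and from 0.827 to 0.850 for the H/L quotients of MT-ND3 and MT-ND4. For MT-ND3 over MT-ND1 with MT-ND2, MT-ND5 and MT-CYB it gave 0.602 to 0.724, 0.651 to 0.798 and 0.583 to 0.638. Calls then ranged from 26 to 62 features at 0.1 U, 37 to 65 at 1 U, 57 to 262 bins at 0.1 U and 140 to 266 at 1 U, each lowest without replicate 2. The share of the 19 bins that rose on the H strand at 0.1 U ranged from 15.8% to 36.8%, and the share that fell on the L strand from 5.26% to 100% at 0.1 U and from 0% to 63.2% at 1 U. Of the alternative values for results that answer a comparison, 352 stayed the same and 65 did not. Among the 65, 38 were counts, percentages or indices that moved beyond a set margin. A further 21 lost their call, 3 gained one and 3 changed direction. The cause was not tested. Shifted gene windows and thinning changed no call. The 10 U samples limit single positions most, since few termini stand behind each.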
